A study of Mus musculus with 62 samples.

Results

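Neocortex libraries taken 2 weeks after injection of cachectic or of non-cachectic melanoma cells were compared. The libraries were chosen by their labels alone, 5 of cachectic (CAC) and 5 of non-cachectic (NCAC) tumour bearers, 10 of the 62 libraries of the series. CAC mice had been injected with melanoma cells labelled cachectic (causing wasting), NCAC mice with melanoma cells labelled non-cachectic, and a mock group of 5 libraries at the same time point had been mock injected. All mice were female, 2 months of age, with no other treatment named in the labels. The strain is given as C57BL6/J in the sample labels and as NCI Ath/nude (athymic nude) in the design text, and athymic nude mice lack T cells, so the immune state of the hosts is uncertain. Neither the labels nor the design text name the cell lines, say how many clones stand behind each or give body weights. The wider series followed the same 3 arms at 2, 4, 6 and 8 weeks, with 7 CAC libraries at 8 weeks and 5 libraries in every other group. The libraries of a group are called biological replicates in the labels.

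Cancer cachexia is a loss of muscle and fat driven by factors from the tumour and the host, among them inflammatory cytokines and adrenal glucocorticoids. In the brain, cytokines act first on vessels and on cells next to them, which respond with acute-phase genes such as Lcn2 and Lrg1. Glucocorticoids cross into brain tissue and induce Fkbp5, Sgk1, Pdk4 and the metallothioneins in neurons, glia and endothelium. Comparing 2 tumours that differ in the ability to cause wasting sets aside what both tumours share. Other differences between the 2 tumours cannot be told apart from cachexia. The 2-week point asks whether a difference was present early.

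The deposited values were TPM (a transcript level scaled for gene length and to the same sum in every library). Read depth, estimated from the steps between low values, was 44.9 M to 50.6 M reads in the 10 libraries. Correlations between 2 of these libraries on the log2(TPM + 1) scale were 0.9954 to 0.9978, all libraries of week 2 came from lane 3 of the sequencer, and no pair was identical. All 12 markers of excitatory cortical neurons were above 0 in each of the 10 libraries, with a summed level of 4538 to 6047 TPM in CAC and 4296 to 5539 TPM in NCAC. Markers of neighbouring regions varied between libraries in both arms. The 11 striatal markers summed to 878.5 to 1854 TPM in CAC and 1252 to 2428 TPM in NCAC. The 10 choroid plexus markers summed to 49.1 to 2594 TPM in CAC and 131.9 to 2467 TPM in NCAC. Markers of hypothalamus and pituitary reached 110.6 TPM in CAC, 40.1 TPM in NCAC and 3776 TPM in 1 mock library.

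No gene passed the test between CAC and NCAC neocortex at 2 weeks. Among 14494 genes averaging 1 TPM or more over the series, 0 passed an adjusted p of 0.05 (0%) in limma's moderated test with Benjamini-Hochberg adjustment, and the lowest adjusted p was 0.524. With limma's voom on reads estimated from the TPM values the count was also 0. At an unadjusted p under 0.05 limma found 616 genes, 451 with a higher mean in CAC (3.11% of those tested) and 165 with a lower mean (1.14%), and voom found 721. When the libraries were rescaled by a trimmed mean of ratios, the split moved to 463 higher and 322 lower, still with 0 past adjustment. The 5 CAC values all lay above the 5 NCAC values for 60 genes (0.414%) and all below for 38 (0.262%).

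The differences themselves were small. The median log2 difference of CAC minus NCAC over all genes was 0.01, the lower and upper quartiles were -0.04 and 0.08, and the 5th and 95th percentiles were -0.16 and 0.21. An estimate beyond 1.2-fold in either direction was found for 722 genes, beyond 1.5-fold for 82 and beyond 2-fold for 14. The 95% interval of the difference gives the size that the fit leaves possible for each gene. The 10 libraries set its centre, and the spread within all 12 groups of the series sets its width. This interval stayed within 1.2-fold for 8330 genes (57.5%), within 1.5-fold for 13512 (93.2%) and within 2-fold for 14268 (98.4%). The bound was tighter for abundant genes. At 1 to 5 TPM, 83.4% of 3126 genes were bounded within 1.5-fold and 22.7% within 1.2-fold, whereas above 100 TPM the shares were 97.7% and 85.4% of 1534 genes. The intervals hold for each gene on its own and are not widened for the number of genes. On this scale a fold change of a gene near 1 TPM is understated. With a pseudocount of 0.1 TPM in place of 1, 12699 of 14494 genes (87.62%) were within 1.5-fold, and with voom 12184 of 13984 (87.13%). A fit of only the 2 groups compared, with the spread of these 10 libraries alone, gave 13574 (93.65%).

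**Figure D1:**
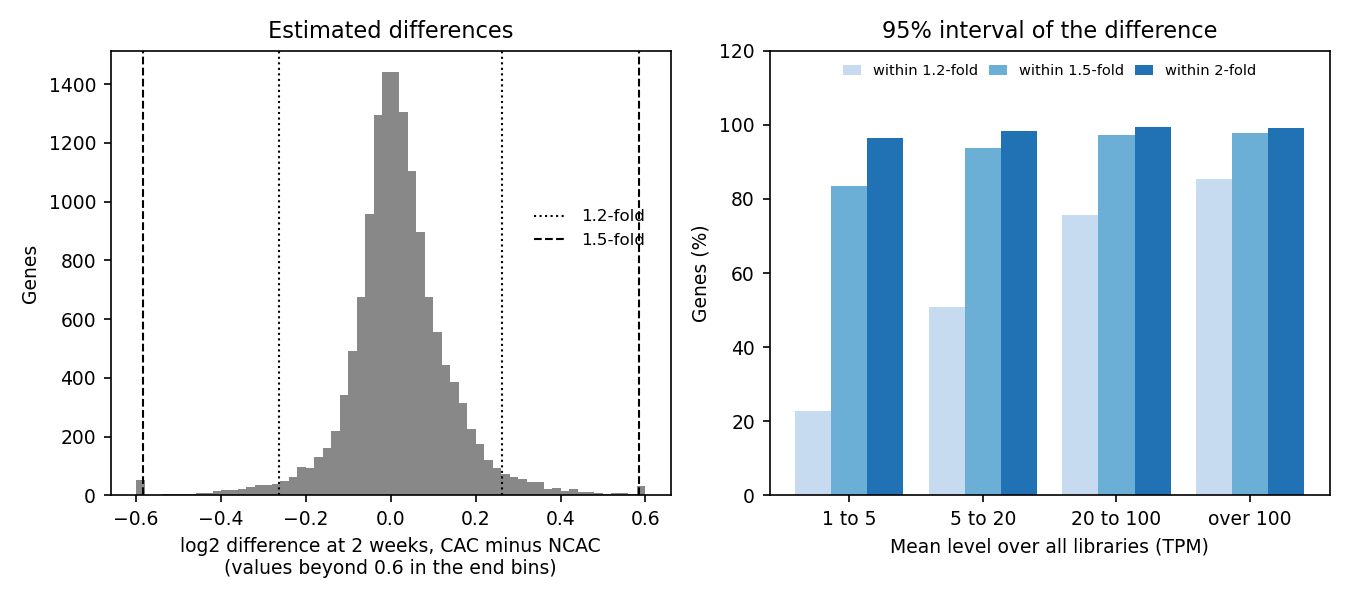
Left, number of genes by log2 difference of CAC minus NCAC at 2 weeks, with lines at 1.2-fold and 1.5-fold; right, the share of genes (%) whose 95% interval stayed within 1.2, 1.5 or 2-fold, by mean level in TPM. Most genes lie inside the 1.2-fold lines, and the share bounded within 1.2-fold goes from 22.7% at 1 to 5 TPM to 85.4% above 100 TPM.

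The genes with the lowest unadjusted p included enzymes of sugar, folate and sulphur amino acid metabolism. None passed adjustment, and their values are given as tendencies. Sord (chromosome 2), which encodes sorbitol dehydrogenase, the enzyme that turns sorbitol into fructose, was at 20.1, 22.5, 18.8, 22.0 and 18.2 TPM in the 5 CAC libraries and at 23.9, 24.8, 27.7, 27.4 and 29.7 TPM in the 5 NCAC libraries. Every CAC value lay below every NCAC value. Its log2 difference was -0.38 ± 0.09 (SE; 95% interval 0.68 to 0.87-fold; adjusted p 0.524), and mock was in between at 23.4 ± 0.23 TPM (SD, n = 5). Stpg1 (chromosome 4), a sperm-tail protein gene with a low level in cortex, was at 1.21, 1.63, 1.14, 1.04 and 0.64 TPM in CAC and at 1.88, 2.51, 1.88, 1.88 and 2.49 TPM in NCAC, again without overlap (log2 difference -0.56 ± 0.13, SE). Mthfd1l (chromosome 10), the mitochondrial enzyme that makes formate from folate-bound carbon, was at 10.9, 13.0, 10.2, 9.16 and 9.05 TPM in CAC and at 16.6, 14.6, 13.99, 13.3 and 14.3 TPM in NCAC, with a log2 difference of -0.45 ± 0.13 (SE). Its mock mean was 9.08 ± 1.95 TPM (SD, n = 5), on the side of CAC. In NCAC against mock, Mthfd1l passed the adjusted test at 0.64 ± 0.13 (SE, log2; limma adjusted p 0.0044). In CAC against mock it did not (0.19).

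Cbs (chromosome 17), cystathionine beta-synthase, which joins homocysteine to serine, lay higher in CAC, at 24.8, 24.8, 23.3, 25.2 and 25.5 TPM against 16.8, 21.3, 21.4, 19.96 and 17.7 TPM. The groups did not overlap, the CAC values lay close together, and the log2 difference was 0.34 ± 0.08 (SE; adjusted p 0.627). Mock mice were at 24.5 ± 1.7 TPM (SD, n = 5). Sat1, the enzyme that acetylates spermidine and spermine for breakdown, was at 37.7 ± 4.57 TPM in CAC, 30.3 ± 1.55 TPM in NCAC and 40.1 ± 2.65 TPM in mock (SD, n = 5 each). Its lowest CAC library, at 30.9 TPM, lay within the NCAC values. Il4ra, the receptor chain shared by interleukin-4 and interleukin-13, was at 3.8 ± 0.62 TPM in CAC and at 2.48 ± 0.34 TPM in NCAC, with 1 CAC library inside the NCAC range (log2 difference 0.46 ± 0.12, SE). The other higher means among the 10 lowest p were those of Rnf144a, Kctd15, Plcd1, Bend3, Dclre1a, Unk and Fam175a, with log2 differences from 0.24 to 0.34. Among them Rnf144a, a ubiquitin ligase, Plcd1, a phospholipase C, and Dclre1a, a nuclease of crosslink repair, separated the 2 groups, as did Kctd15 and Bend3. Further lower means included those of Dbp, Prss50, Angptl2, Tnxb, Hrh3 and Sumf2, from -0.26 for Sumf2 to -0.50 for Prss50. Hrh3, the histamine receptor that restrains transmitter release, was at 99.8 ± 18.5 TPM in CAC and at 122 ± 5.19 TPM in NCAC.

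**Figure D2:**
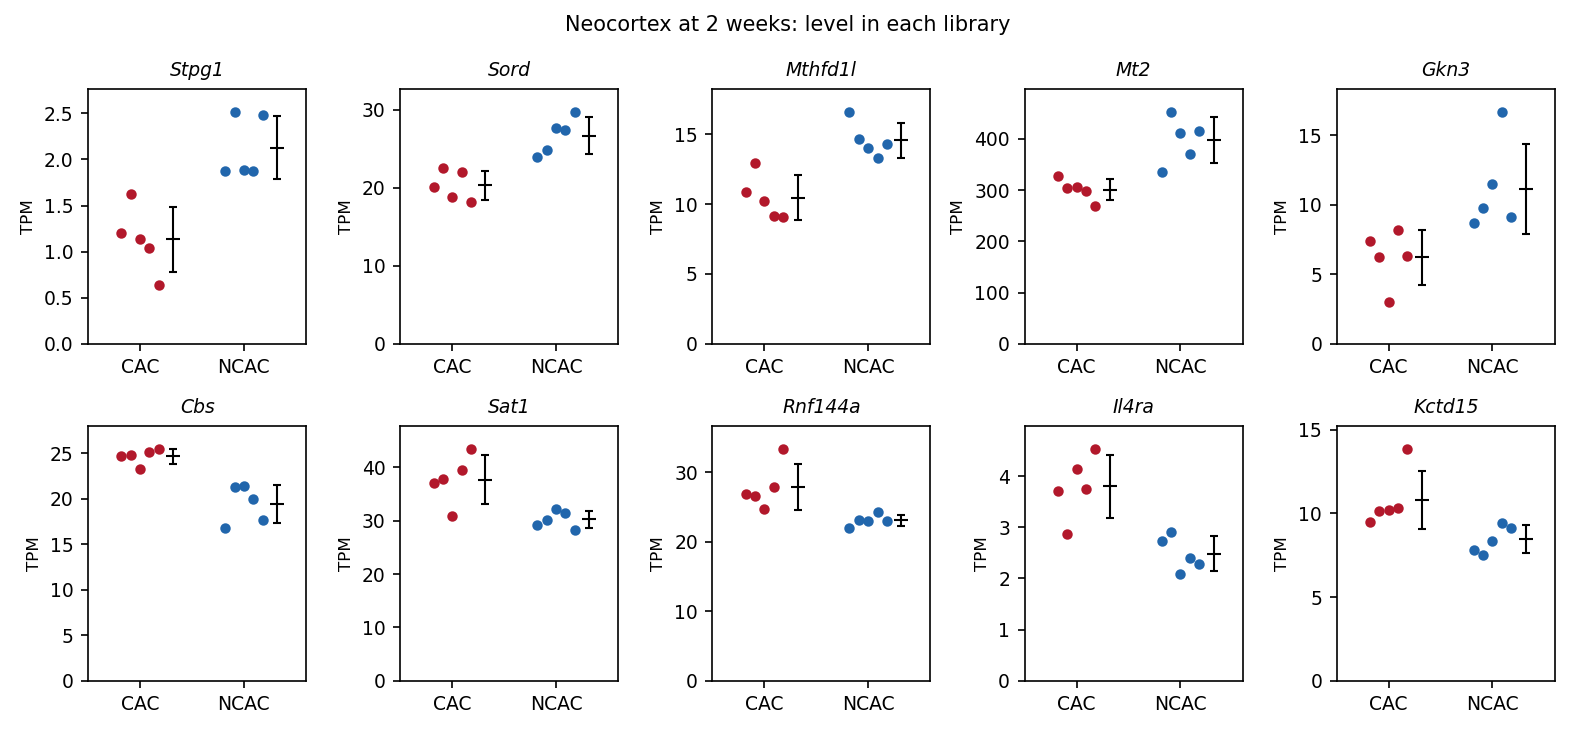
TPM of 10 named genes in each library at 2 weeks, CAC in red and NCAC in blue, with the mean and SD (n = 5) in black at the right of each group. The points of Stpg1, Sord, Mthfd1l, Mt2, Gkn3, Cbs, Rnf144a and Kctd15 do not overlap between the groups, while 1 CAC library of Sat1 and of Il4ra lies within the NCAC values.

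For these 20 genes the position of mock was set beside both arms, with the caution that both comparisons share the mock libraries and that the genes were picked for the CAC to NCAC gap. The mock mean lay between the CAC and NCAC means for 9 of the 10 genes higher in CAC and 6 of the 10 lower. NCAC differed from mock for 6 of the 20 (Unk, Cbs, Sat1, Hrh3, Dbp and Mthfd1l, adjusted p under 0.05) and CAC for 1 (Prss50). Over all genes, NCAC differed from mock for 1262 (8.71%), 851 higher (5.87%) and 411 lower (2.84%), and CAC for 620 (4.28%), 533 higher (3.68%) and 87 lower (0.6%). These 2 counts do not test CAC against NCAC, where 0 genes passed.

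Most glucocorticoid-responsive genes had lower means in CAC than in NCAC at 2 weeks, whereas all 20 had higher means at 8 weeks. Of 20 tested members, 18 had a lower mean in CAC and 2 (Gpd1 and Cdkn1a) a higher one, with a median log2 difference of -0.26 beside 0.01 for all genes. None passed adjustment, 1 (Mt2) was lower at an unadjusted p under 0.05, where 1.14% of all genes were, and 2 (Mt2 and Pdk4) had every CAC value below every NCAC value, as 0.262% of all genes did. The list was put together with earlier results of these data known. Mt2, a metallothionein that binds zinc and copper, was at 327, 305, 306, 299 and 268 TPM in CAC and at 336, 452, 411, 371 and 416 TPM in NCAC. The highest CAC value lay just below the lowest NCAC value, and the log2 difference was -0.39 ± 0.15 (SE). Pdk4, the kinase that closes pyruvate dehydrogenase in fasting, was at 14.6, 12.7, 14.8, 11.04 and 12.4 TPM in CAC and at 15.9, 16.6, 18.7, 16.3 and 15.7 TPM in NCAC (log2 difference -0.33 ± 0.19, SE). Fkbp5, a chaperone partner of the glucocorticoid receptor, overlapped between the groups, at 15.04 ± 3.53 TPM in CAC, 19.8 ± 4.17 TPM in NCAC and 14.7 ± 2.32 TPM in mock (SD, n = 5 each). Tsc22d3, the gene of the glucocorticoid-induced leucine zipper, was at 43.4 ± 9.11 TPM, 58.2 ± 8.33 TPM and 42.7 ± 17.03 TPM in the same order. The summed level of the 20 members was 1495 to 1694 TPM in CAC, 1697 to 2082 TPM in NCAC and 1554 to 1864 TPM in mock, so the 2 tumour arms touched at the boundary without overlapping and mock overlapped both. Mt1 and Mt2 make up most of that sum, with CAC means of 666 and 301 TPM. The mean log2 level of the 20 members per library, which weighs each gene alike, overlapped, at 4.655 to 5.129 in CAC and 5.04 to 5.382 in NCAC. Against mock, the median of the list was 0.08 in CAC with 0 of 20 passing adjustment, beside 4.28% of all genes. In NCAC it was 0.32 with 1 passing, higher (Klf9), beside 5.87% of all genes. When each of the 10 libraries was left out in turn, the CAC to NCAC median of the list stayed between -0.31 and -0.16.

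The immediate early genes, which neurons transcribe within minutes of firing, lay in the same direction with a much larger spread. Of 18 members 17 had a lower mean in CAC, with a median of -0.37. None passed adjustment, and 1 (Jun) was lower at an unadjusted p under 0.05, beside 1.14% of all genes. Jun was at 32.9, 27.8, 33.7, 30.6 and 36.7 TPM in CAC and at 38.4, 45.2, 44.4, 43.0 and 37.3 TPM in NCAC, without overlap (log2 difference -0.36 ± 0.14, SE). Fos ranged from 8.38 to 52.9 TPM within CAC and from 20.5 to 46.1 TPM within NCAC, and the highest Fos value of the 10 libraries was in CAC replicate 5. Arc, a synaptic protein gene induced by activity, was at 123, 33.9, 134, 39.1 and 252 TPM in CAC and at 73.3, 199, 323, 179 and 138 TPM in NCAC. The summed level of the list was lowest in CAC replicates 2 and 4, at 401.6 and 418.8 TPM, against 623.4 TPM or more in the other 8 libraries. Without these 2 libraries the median was -0.08 for the immediate early list and -0.18 for the glucocorticoid-responsive list. Both libraries were picked for their low immediate early sums, so a shift of that list toward 0 follows from the choice. Dusp1 belongs to both lists and Per1 to the glucocorticoid-responsive and clock lists.

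Clock genes did not all lean the same way. The mammalian clock is a loop in which ARNTL (BMAL1) with CLOCK or NPAS2 binds E-box sequences and switches on Per, Cry, Ciart, Bhlhe41 and Dbp, whose products feed back on it, while REV-ERB (Nr1d1) and ROR proteins act on Arntl through ROR elements. The E-box (CACGTG) and ROR element (TAGGTCA) in the promoters of genes described here are shown in capitals, from RefSeq on GRCm38.p6. The first 3 are the 250 bases before the annotated start, on the gene's strand: Ciart at chr3:95882229-95882478 (minus strand), Cry1 at chr10:85185055-85185304 (minus strand) and Bhlhe41 at chr6:145865421-145865670 (minus strand). The fourth is a 30-base stretch just after an Arntl start at chr7:113207529-113207558 (plus strand).
Ciart: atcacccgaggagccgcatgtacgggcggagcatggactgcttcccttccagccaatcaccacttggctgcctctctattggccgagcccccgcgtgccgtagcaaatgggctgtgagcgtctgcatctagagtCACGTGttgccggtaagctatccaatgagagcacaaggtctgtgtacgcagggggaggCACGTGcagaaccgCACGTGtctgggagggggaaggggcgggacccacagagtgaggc
Cry1: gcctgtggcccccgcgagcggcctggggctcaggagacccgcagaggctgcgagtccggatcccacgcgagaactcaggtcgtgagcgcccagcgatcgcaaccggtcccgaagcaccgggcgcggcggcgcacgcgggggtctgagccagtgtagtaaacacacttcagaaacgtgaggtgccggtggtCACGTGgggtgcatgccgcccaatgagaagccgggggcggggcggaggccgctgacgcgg
Bhlhe41: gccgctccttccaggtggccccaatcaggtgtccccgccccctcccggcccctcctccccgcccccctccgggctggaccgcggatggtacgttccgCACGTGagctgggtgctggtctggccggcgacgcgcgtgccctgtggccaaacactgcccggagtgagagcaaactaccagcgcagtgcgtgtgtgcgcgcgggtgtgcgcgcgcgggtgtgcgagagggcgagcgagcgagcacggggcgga
Arntl: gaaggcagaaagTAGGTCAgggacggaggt
The E-box letters, which read the same on both strands, occurred 3 times in Ciart, 111, 53 and 39 bases before the start, once in Cry1 at 55 bases and once in Bhlhe41 at 148 bases. Of 14 clock genes with an entry in the promoter table, 5 (Bhlhe41, Ciart, Cry1, Per1 and Tef) held an E-box within 300 bases around a start, compared with 8.09% of 27025 genes and 7.15% of all 32851 windows. The ROR element letters, searched on both strands, were found in 1 (Arntl) and in 2.61% of all windows. A match describes letters and is not evidence of binding.

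In these libraries 12 of the 16 clock genes had a lower mean in CAC and 4 a higher one (Arntl, Npas2, Clock and Nr1d1), with a median of -0.14. None passed adjustment. Unadjusted p was under 0.05 for 4 lower (Dbp, Cry1, Ciart and Bhlhe41) and 2 higher (Arntl and Npas2), where 1.14% and 3.11% of all genes stood at that level. Dbp, an output factor of the clock, was at 150, 190, 168, 118.4 and 109 TPM in CAC and at 168, 188, 213, 218 and 209 TPM in NCAC. CAC replicate 2 lay inside the NCAC values, and the log2 difference was -0.46 ± 0.15 (SE; unadjusted p 0.00256, limma). Ciart, a repressor of the loop, was at 16.4, 27.7, 20.8, 12.4 and 14.5 TPM against 22.0, 25.1, 27.9, 33.6 and 28.3 TPM. Cry1, another repressor, was at 18.4, 24.5, 20.1, 18.1 and 17.03 TPM against 28.9, 28.5, 22.7, 22.6 and 27.1 TPM. In both genes the CAC replicate 2 value again lay inside the NCAC range and the other 4 CAC values below it. Arntl, the activator, ran the other way, at 34.2, 25.8, 28.2, 29.5 and 37.6 TPM in CAC and 28.0, 26.9, 22.6, 23.2 and 24.7 TPM in NCAC, with a log2 difference of 0.29 ± 0.10 (SE).

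For Dbp, Cry1 and Ciart the CAC mean lay closer to mock than the NCAC mean did. Mock means were 139 TPM for Dbp, 18.2 TPM for Cry1 and 15.3 TPM for Ciart, beside CAC means of 147, 19.6 and 18.4 TPM and NCAC means of 199, 26.0 and 27.4 TPM. For Npas2, Nr1d1 and Clock the NCAC mean was the closer. Their means in CAC, NCAC and mock were 30.1, 26.6 and 25.9 TPM, 125.9, 110.2 and 108.2 TPM, and 22.4, 20.3 and 20.9 TPM. The mock mean of Arntl, 28.1 TPM, lay between 31.1 TPM in CAC and 25.1 TPM in NCAC. In NCAC against mock, 5 of the 16 clock genes passed adjustment, all higher (Dbp, Cry1, Ciart, Hlf and Cry2), beside 5.87% of all genes. In CAC against mock 0 passed, beside 4.28% of all genes. The summed level of the 16 genes was 861.8 to 1084 TPM in CAC, 1102 to 1135 TPM in NCAC and 765.9 to 949.3 TPM in mock. The mean log2 level of the 16 genes per library overlapped between the tumour arms, at 5.305 to 5.68 in CAC and 5.669 to 5.718 in NCAC. The labels do not state the hour at which each mouse was killed, so the arm and the time of day cannot be told apart.

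**Figure D3:**
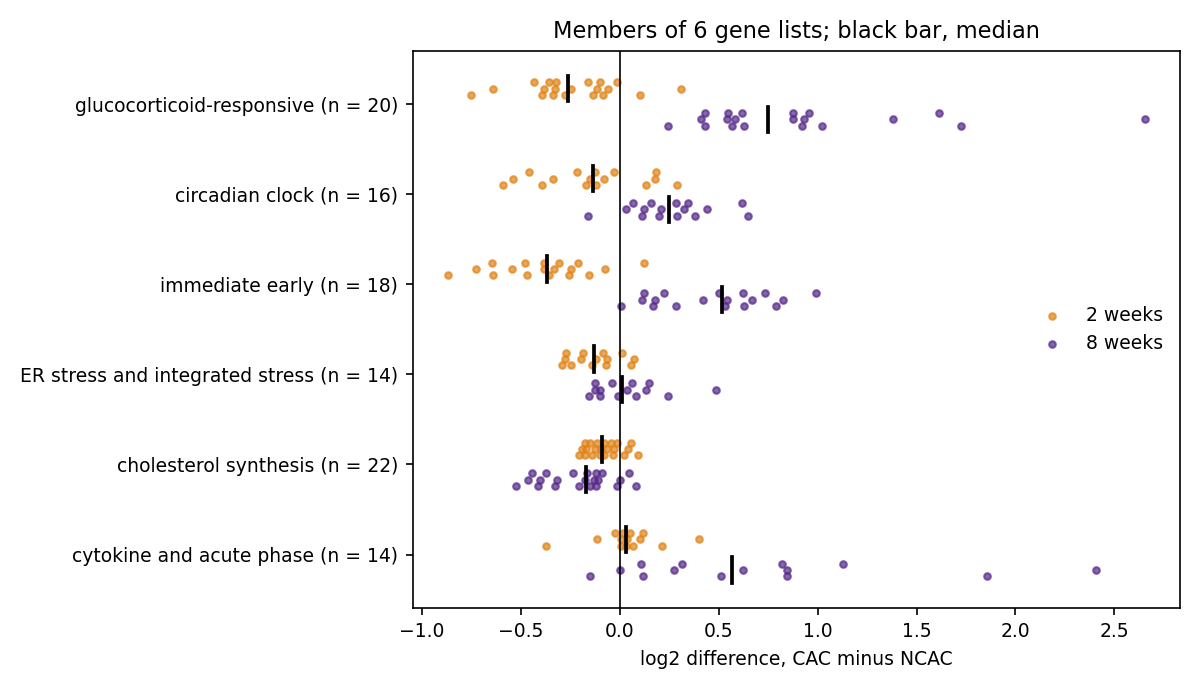
Each point is 1 gene of a list, placed by its log2 difference of CAC minus NCAC at 2 weeks (orange) and at 8 weeks (purple), with the median as a black bar. The glucocorticoid-responsive, clock and immediate early medians lie at -0.26, -0.14 and -0.37 at 2 weeks and at 0.75, 0.25 and 0.52 at 8 weeks, and the cytokine median at 0.03 and 0.57.

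Stress and lipid lists showed smaller shifts. Genes of endoplasmic reticulum stress had a lower mean in CAC for 11 of 14 members (median -0.13), with 3 lower at an unadjusted p under 0.05 (Herpud1, Pdia4 and Dnajb9), beside 1.14% of all genes. Herpud1, which helps to clear misfolded proteins, was at 59.4 ± 5.04 TPM in CAC and at 67.5 ± 4.67 TPM in NCAC (SD, n = 5 each). Cholesterol synthesis had 18 of 22 lower (median -0.09), with 3 lower at an unadjusted p under 0.05 (Fdft1, Ebp and Sqle), beside the same 1.14%. Every one of the 22 intervals lay inside 1.5-fold, as did those of 93.2% of all genes. Fdft1, squalene synthase, was at 76.5 ± 8.41 TPM in CAC and at 88.2 ± 5.65 TPM in NCAC. At 8 weeks 9 of the 22, a list chosen with earlier results known, were lower in CAC after adjustment, beside 1.64% of all genes. Hmgcs1, called at that age, stood at -0.08 ± 0.09 (SE, log2) at 2 weeks. Among heat shock and cold response genes 9 of 11 had a lower mean, with Hspa1a, an inducible HSP70, at 5.49 ± 0.78 TPM against 7.55 ± 1.25 TPM. Adjusted tests passed for 0 members of these 3 lists.

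No cell type marker passed adjustment. Of the 35 lists with 3 or more tested members, 12 had every tested member's interval inside 1.5-fold. Among them were the lists of astrocytes, oligodendrocyte precursors, pericytes with smooth muscle, excitatory neurons and inhibitory neurons. Of all tested genes 93.2% had such an interval. Microglial markers had a median of -0.06 with 13 of 14 intervals inside 1.5-fold, and P2ry12, the resting microglia receptor, was at 56.1 ± 5.96 TPM in CAC and at 56.9 ± 6.62 TPM in NCAC. Aqp4, the water channel of astrocyte endfeet, was at 61.6 ± 4.84 TPM and 65.4 ± 8.06 TPM. Gfap, an astrocyte filament protein, was at 97.3 ± 12.2 TPM and 112 ± 13.0 TPM. Endothelial markers had 11 of 14 higher means in CAC (median 0.08), with Cldn5, a tight junction protein of brain vessels, at 65.0 ± 13.5 TPM against 48.8 ± 7.31 TPM. In bulk tissue, fewer cells of a type and less RNA per cell cannot be told apart. All 10 choroid plexus markers had lower means in CAC (median -0.43), beside the overlapping summed levels given above. Their share in any other difference was not tested. Against mock, 3 endothelial markers were lower in CAC and 6 in NCAC after adjustment, beside 0.6% and 2.84% of all genes. Of the pericyte and smooth muscle markers, 2 were lower in CAC (Acta2 and Myh11, both of smooth muscle) and 5 in NCAC, beside the same shares. The 5 in NCAC were Acta2, Myh11, Pdgfrb, Rgs5 and Vtn. Higher against mock were 5 markers of excitatory neurons and 9 genes of the synaptic vesicle list in CAC and the same numbers in NCAC, beside 3.68% and 5.87% of all genes. The part of these shifts in other differences from mock was not tested. Markers of T lymphocytes, B lymphocytes, neutrophils and pigment cells were mostly under a mean of 1 TPM, with 4, 3, 2 and 2 members tested and 0 called. Summed pigment cell markers, which melanoma cells express, were at 190.1 to 221.9 TPM in CAC and 173.6 to 233.6 TPM in NCAC. Mock mice, not given melanoma cells, were at 211 to 239.9 TPM, so this sum cannot show whether melanoma cells were present.

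The low vascular gene Gkn3 separated the 2 groups. Gkn3 (chromosome 6), a marker of arterial endothelium in the mouse brain, was at 7.4, 6.25, 3.01, 8.17 and 6.32 TPM in CAC and at 8.68, 9.75, 11.5, 16.6 and 9.11 TPM in NCAC. The groups did not overlap, the log2 difference was -0.76 ± 0.33 (SE), and the unadjusted limma p of 0.0241 did not survive adjustment. Mock was at 7.18 ± 1.87 TPM (SD, n = 5). The CAC to NCAC difference of Gkn3 was -0.65 at 4 weeks, and at 6 and 8 weeks it passed adjustment at -1.79 and -1.78 (adjusted p 0.000687 and 0.000123). Its change from 2 to 8 weeks was -1.02 ± 0.45 (SE) and did not pass.

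Genes that separate the 2 tumour arms later were split between the 2 directions at 2 weeks. CAC and NCAC differed in 1 gene at 4 weeks (0.0069%), in 1399 at 6 weeks (9.65%) and in 873 at 8 weeks (6.02%). Of the 636 genes higher in CAC at 8 weeks, 319 (50.2%) had a higher mean in CAC at 2 weeks, where 56.5% of all tested genes did. Their median log2 difference was 0.31 at 8 weeks and 0.00064 at 2 weeks, beside 0.01 for all genes. Of the 237 genes lower at 8 weeks, 125 (52.7%) were also lower at 2 weeks, where 6310 of all 14494 tested genes were. Their medians were -0.39 at 8 weeks and -0.0061 at 2 weeks. At an unadjusted p under 0.05 at 2 weeks, 13 of the 636 leaned the same way and 9 the opposite way, and 4 and 7 of the 237. At that level 3.11% of all tested genes were higher in CAC and 1.14% lower. The 2-week interval ended short of the 8-week estimate for 589 of the 636 (92.6%) and 220 of the 237 (92.8%). The 8-week estimates are those of genes picked for being large, so the gap is overstated to that extent.

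The acute-phase genes of the later response were low in both arms, as in mock (Lcn2 0.46 TPM, Lrg1 1.35 TPM). Lcn2, the iron-binding lipocalin, was at 0.265, 0.255, 0.434, 0.237 and 0.315 TPM in CAC and at 0.566, 0.128, 0.107, 0.277 and 0.310 TPM in NCAC at 2 weeks, and at 5.235 ± 3.62 TPM (SD, n = 7) and 0.567 ± 0.276 TPM (SD, n = 5) at 8 weeks. On the log2(TPM + 1) scale the 2-week interval of -0.41 to 0.49 leaves out the 8-week difference of 1.86, and for a gene under 1 TPM this scale understates the fold in TPM. The fold intervals of Lrg1, Il1r1 and Osmr that follow are likewise of TPM + 1. Lrg1, a secreted glycoprotein of inflamed vessels, was at 1.34, 2.37, 5.84, 1.84 and 1.61 TPM in CAC and at 0.84, 2.04, 1.82, 1.24 and 1.81 TPM in NCAC. The 5.84 TPM of CAC replicate 3 lay far above the rest. The interval was 0.885 to 1.98-fold, with a width set by the spread within all 12 groups of the series. Il1r1, the interleukin-1 receptor, was at 1.95 ± 0.25 and 1.94 ± 0.34 TPM, with an interval of 0.832 to 1.215-fold. Osmr, the oncostatin M receptor, was at 1.23 ± 0.21 and 1.06 ± 0.26 TPM, with an interval of 0.92 to 1.28-fold. Over the cytokine and acute-phase list 11 of 14 tested members had a higher mean in CAC, with a median of 0.03. Inside 1.5-fold lay 11 intervals, beside 93.2% of all genes, and 0 genes were at an unadjusted p under 0.05. At 8 weeks 9 of the 14 were higher after adjustment, beside 4.39% of all genes. This list too was chosen with earlier results of these data known.

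**Figure D4:**
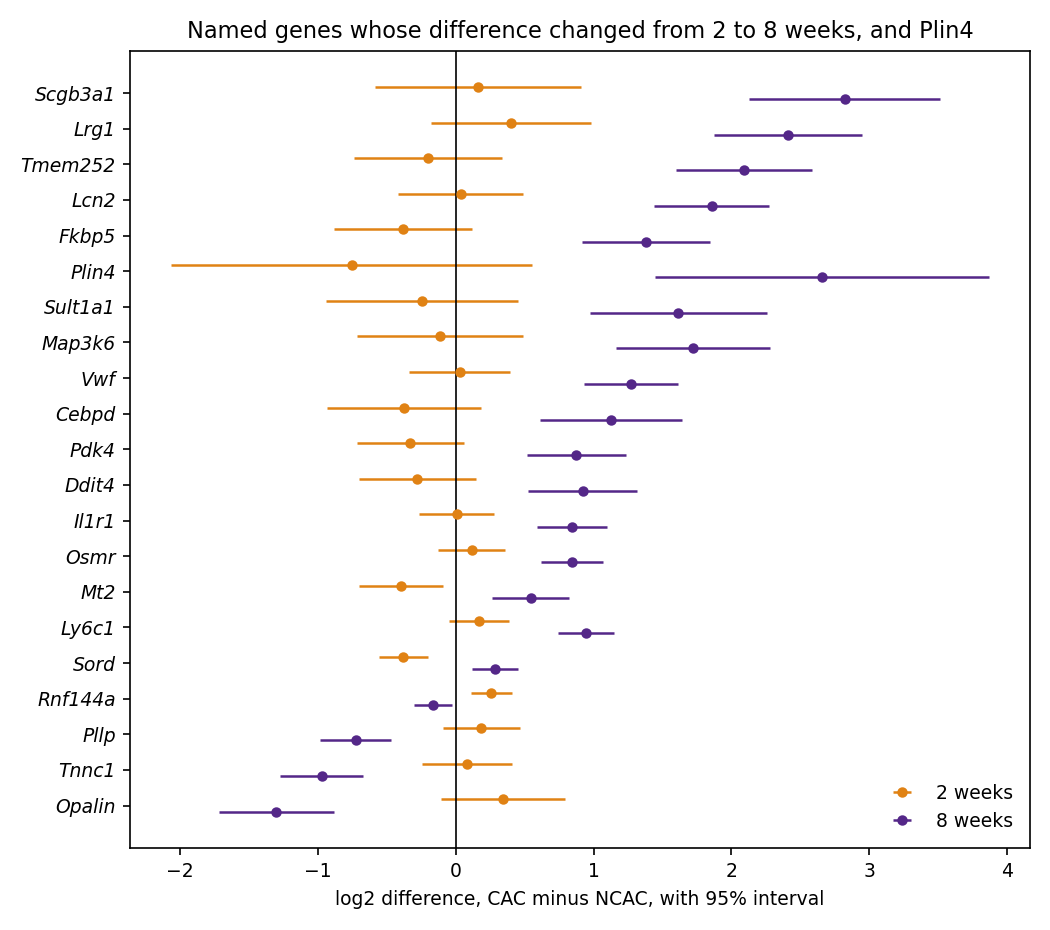
Log2 difference of CAC minus NCAC with its 95% interval at 2 weeks (orange) and 8 weeks (purple) for 20 named genes whose difference changed between the 2 ages after adjustment, and for Plin4, whose change did not pass. The intervals of Lcn2, Il1r1, Osmr and Vwf include 0 at 2 weeks and lie above 0 at 8 weeks, and Sord and Mt2 lie on opposite sides of 0 at the 2 ages.

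The difference between the ages was tested directly, in the libraries of both ages, which the contrasts do not share. All 2-week libraries were on lane 3 and all 8-week libraries on lane 4, so age and lane cannot be told apart. The CAC to NCAC difference changed from 2 to 8 weeks for 75 genes (0.517%), 53 toward CAC and 22 toward NCAC. The count rested on single libraries, from 23 without CAC replicate 5 of 2 weeks to 387 without CAC replicate 3 of 8 weeks. Genes described here that passed with each of the 22 libraries left out in turn were Lcn2 (change 1.82 ± 0.31, SE, log2; adjusted p 0.00149), Lrg1, Tmem252, Scgb3a1, Fkbp5, Pdk4, Vwf, Ly6c1 and Sord with positive changes and Opalin, Pllp and Tnnc1 with negative ones. Under the 7 other settings tried, Lcn2, Lrg1 and Pllp passed in 6, Scgb3a1 in 5 and the other 8 of these genes in all 7. Fkbp5 went from -0.38 at 2 weeks to 1.38 at 8 weeks, a change of 1.76 ± 0.34 (SE; adjusted p 0.00472). Of the 20 glucocorticoid-responsive genes 7 passed this test, all toward CAC, as 0.366% of all genes did (Fkbp5, Mt2, Mt1, Pdk4, Ddit4, Sult1a1 and Map3k6). That list was chosen with earlier results of these data known, and the test uses the 8-week libraries. The count is therefore not independent support. Calls of Mt1, Ddit4 and Sult1a1 were lost in 11, 13 and 17 of the 22 removals, with adjusted p up to 0.101, 0.101 and 0.128. Mt2 and Map3k6 each lost theirs in 2, without CAC replicate 5 of 2 weeks in both (highest adjusted p 0.0579 and 0.0547). Sord changed by 0.67 ± 0.12 (SE; adjusted p 0.00424), with CAC below NCAC at 2 weeks and above at 8 weeks (0.29, adjusted p 0.0248). Opalin, a myelin protein of mature oligodendrocytes, went from 0.34 to -1.30, with 30.1 ± 5.7 and 23.6 ± 4.86 TPM at 2 weeks in CAC and NCAC. Of the 18 immediate early genes and of the 16 clock genes, 0 passed this test. At an unadjusted p under 0.05, 1571 genes changed in limma's test, and with voom 61 passed adjustment.

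Several of the largest estimates, gene models and pseudogenes left aside, belonged to genes with separate levels inside the groups. Tuba1c, a tubulin, was at 5.67, 1.32, 81.8, 2.66 and 4.79 TPM in CAC and at 80.6, 89.7, 79.9, 3.6 and 91.1 TPM in NCAC. Each library was either at 79.9 TPM or more or at 5.67 TPM or less, with 1 CAC and 4 NCAC libraries at the high level, and the interval of the fold was 0.0237 to 1.087. Capn11, a calpain protease, was at 4.01, 0.36, 6.0, 8.46 and 8.49 TPM in CAC and between 0.18 and 0.40 TPM in the 5 NCAC libraries. Cstf2t, a retrocopy of a polyadenylation factor gene, showed 3 levels, at 74.9, 71.8, 73.5, 0.15 and 33.6 TPM in CAC and 73.8, 38.8, 64.2, 36.5 and 73.4 TPM in NCAC. Rps26, a protein of the small ribosomal subunit, was at 289 to 296 TPM in 3 libraries, at 0.76 TPM in NCAC replicate 5 and at 515 to 642 TPM in the other 6. Its processed pseudogene Rps26-ps1, looked up after these values were seen, was at 323 to 348 TPM in those 3 libraries, at 598.5 TPM in NCAC replicate 5 and under 1 TPM in the rest. The sum of both was 587 ± 35.7 TPM in CAC and 598 ± 52.6 TPM in NCAC (SD, n = 5 each). Other large estimates came from genes without such steps. Pmch, the precursor of the hypothalamic peptide melanin-concentrating hormone, was at 12.9, 1.09, 63.8, 0.92 and 0.50 TPM in CAC and at 1.51, 1.35, 1.41, 0.68 and 3.71 TPM in NCAC (log2 difference 1.12 ± 0.96, SE). H2-D1, a class I antigen-presenting molecule, was at 14.9, 10.6, 26.7, 24.5 and 21.4 TPM in CAC and at 44.3, 18.9, 55.5, 31.6 and 45.1 TPM in NCAC. H2-Ob, a class II accessory chain near it on chromosome 17, ran in reverse, at 1.17 to 2.59 TPM in CAC and 0.0645 to 0.598 TPM in 4 NCAC libraries, with 1.57 TPM in NCAC replicate 4. Several of these genes have near-identical copies, and the H2 genes have many alleles in mice, so how reads were assigned is uncertain. None passed adjustment. Cwc22, a splicing factor gene on chromosome 2, was at 61.6 TPM in CAC replicate 1 and 193.9 TPM in NCAC replicate 1, and between 6.36 and 10.99 TPM in the other 8 libraries. A gap of at least 2 on the log2 scale with 2 or more libraries on each side was found in 20 tested genes, 7 of them pseudogenes.

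**Figure D5:**
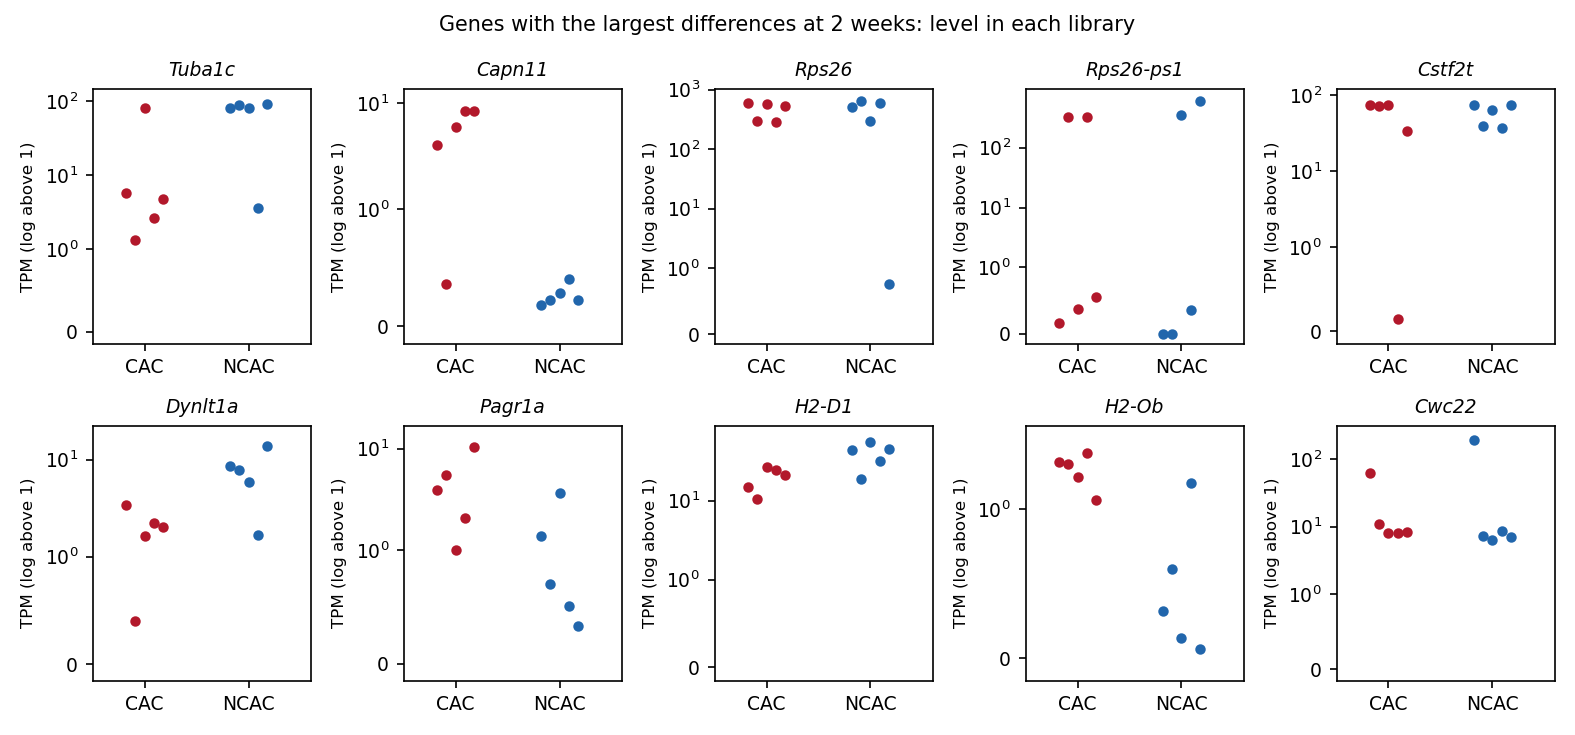
TPM of 10 genes in each library at 2 weeks, CAC in red and NCAC in blue, on an axis that is linear up to 1 TPM and logarithmic above. Tuba1c and Cwc22 fall into 2 levels and Cstf2t and Rps26 into 3, and Rps26-ps1 is high where Rps26 is low.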

How the data were processed

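The authors deposited 1 table of TPM values per gene for 62 stranded mRNA libraries of mouse neocortex (Trizol extraction and TruSeq stranded mRNA kit, per the labels' protocols). Per the submitters' processing notes the build was mm10. Which aligner and counting tool were used, and how reads shared between gene copies were handled, is not given in the sources used here. The same protocol text names another tumour cell and a 3-week time point, which no sample label carries. Of 47643 genes, 22257 were at 0 in every library, 27 symbols were dates made by a spreadsheet, and 0 value columns lacked a sample. Of 208540 low values, 86.03% came out as whole reads within 0.05 reads when read depth was estimated from their steps. This share was too low to treat the values as recovered reads, and voom was run on the estimates only as an alternative.

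From these values log2(TPM + 1) was fitted with limma 3.58.1 (R 4.3.3, statmod 1.5.0), with a trend in the prior variance, in 1 model of all 12 groups with 50 residual degrees of freedom. The 14494 genes averaging 1 TPM or more over the 62 libraries were tested and adjusted by the Benjamini-Hochberg method at 0.05. A 95% interval comes from the same fit, and SE is that of the fit. Every p is two-sided and from this limma fit. The scripts were tested on simulated data.

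The comparison, the gene lists and the anchor genes were chosen with earlier results of these data known. Genes were named by rule: the 10 higher and 10 lower with the lowest p, the 5 higher and 5 lower with the largest difference, the 2 lowest p of each list, genes described earlier for weeks 6 and 8, and the 5 higher and 5 lower with the largest change from 2 to 8 weeks. In all 126 genes met it, and 28 further examples were chosen after their values were seen. A gene among those with the lowest p is not reported here. Alternatives were a pseudocount of 0.1 TPM, no filter, scaling by a trimmed mean of ratios (TMM), robust moderation, a replicate block, fits of fewer groups, voom and leaving out each library. Leaving out CAC replicates 2 and 4 together was added after the data were seen. Promoter sequences came from RefSeq (GRCm38.p6).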

Additional observations from a re-analysis of the deposited data

Results flagged for a closer look

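In 15 of 198 groups of 5 libraries checked (7.58%), 1 library stood far from the other 4, where chance gives about 1 in 20. The genes checked were those named in the report, some picked for large differences or after their values were seen. Their share of flags therefore cannot be read against that chance level. High values in CAC were 2.38 TPM for Il1r1, 61.6 TPM for Cwc22, 13.9 TPM for Kctd15, 19.4 TPM for Plcd1, 63.8 TPM for Pmch, 52.9 TPM for Fos, 81.8 TPM for Tuba1c and 5.84 TPM for Lrg1. High values in NCAC were 37.3 TPM for Per2, 193.9 TPM for Cwc22, 18.7 TPM for Pdk4, 3.71 TPM for Pmch and 102.7 TPM for Vtn. Low values in NCAC were 3.60 TPM for Tuba1c and 70.1 TPM for Gpd1. The single libraries were CAC replicate 3 in 4 of these groups, CAC replicate 5 and NCAC replicate 4 in 3 each, NCAC replicate 1 in 2 and 3 other libraries in 1 each.

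For 23 of the genes the CAC to NCAC difference changed from 2 to 8 weeks in limma's test of the change (adjusted p under 0.05). The change toward CAC was 2.66 for Scgb3a1, 2.29 for Tmem252, 2.01 for Lrg1, 1.86 for Sult1a1, 1.84 for Map3k6, 1.82 for Lcn2, 1.76 for Fkbp5 and 1.501 for Cebpd on the log2 scale. It was 1.24 for Vwf, 1.202 for Pdk4, 1.198 for Ddit4, 0.94 for Mt2, 0.87 for Slc2a1, 0.84 for Il1r1 and 0.78 for Ly6c1. It was 0.73 for both Osmr and Mt1, 0.67 for Sord and 0.52 for Hrh3. The change toward NCAC was -1.64 for Opalin, -1.05 for Tnnc1, -0.91 for Pllp and -0.42 for Rnf144a. Of these, Hrh3, Sord and Rnf144a were chosen for their gap at 2 weeks. Calls of 6 of these genes were lost in most removals of a single library. Hrh3 kept its call in 7 of 22 removals and 2 of 7 other settings, Cebpd in 6 and 1, Slc2a1 in 6 and 2, Rnf144a in 10 and 5, Ddit4 in 9 and 4, and Sult1a1 in 5 and 1.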

How the results depend on the processing

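The count of genes passing adjustment between CAC and NCAC at 2 weeks was 0 in each of the 19 alternatives, with 324 to 1166 genes at an unadjusted p under 0.05. The number of genes whose difference changed from 2 to 8 weeks, 75 in the report, was 41 with no filter on level and ranged from 23 without CAC replicate 5 of 2 weeks to 387 without CAC replicate 3 of 8 weeks. Leaving out other single libraries moved it over 1.5-fold too. It was 41, 116 and 46 without CAC replicates 1, 3 and 4 of 2 weeks, and 37, 26, 145 and 42 without NCAC replicates 1, 2, 3 and 5 of 2 weeks. It was 37, 36, 29 and 42 without CAC replicates 1, 2, 6 and 7 of 8 weeks, and 39, 32, 172 and 25 without NCAC replicates 1, 2, 3 and 5 of 8 weeks. The cause was not tested. An interval within 1.5-fold was found for 24126 of 25386 genes with no filter, 12699 of 14494 (87.62%) with a pseudocount of 0.1 TPM and 12184 of 13984 (87.13%) with voom, beside 93.2% in the report.

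The replicate numbers did not pair the samples. Correlations of deviations between CAC and NCAC libraries of the same number were 0.0309, -0.121, -0.0045, 0.202 and -0.0503, and 1 of 5 numbers correlated best with its own. With the replicate block 0 genes passed at 2 weeks, and 33 genes changed from 2 to 8 weeks.

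Of 35 list medians, 15 kept their sign in all 17 settings. The B lymphocyte median was -0.28 with a pseudocount of 0.1 TPM. Of 99 genes checked, 11 took another sign somewhere. Without CAC replicates 2 and 4 together the log2 difference was 0.0579 for Cstf2t, 0.16 for Cwc22, 0.0131 for Hmgcs1, 0.17 for Tmem252 and -0.0677 for Vwf. Il1r1 was at -0.0033 with trimmed-mean scaling and -0.000978 with voom. Rps26-ps1 was at 0.64 with a pseudocount of 0.1 TPM and 0.72 with voom. Leaving out single libraries gave ranges of -1.37 to 0.14 for Cstf2t, -0.67 to 0.78 for Cwc22, -0.0444 to 0.0468 for Il1r1, -0.0131 to 0.11 for Lcn2, -0.0815 to 0.0334 for P2ry12, -0.18 to 1.95 for Rps26, -1.21 to 1.38 for Rps26-ps1, -0.0243 to 0.22 for Tnnc1 and -0.11 to 0.15 for Vwf. The cause was not tested. The comparisons with mock and those of weeks 4 and 6 were not varied. Low genes have the widest intervals, and 5 libraries a group limit all of them.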

Other observations

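Genes of energy metabolism and protein synthesis lay close together in the 2 arms at 2 weeks, as most genes did. Of all tested genes 93.2% had a 95% interval within 1.5-fold, and 97.7% of those above 100 TPM. All 28 tested genes of the nuclear-encoded respiratory chain, all 35 cytosolic ribosomal protein genes and all 13 mitochondrially encoded genes had a 95% interval within 1.5-fold, with medians of -0.02, -0.02 and -0.01 on the log2 scale. All 18 genes of synaptic vesicles and release were bounded in the same way, with a median of 0.0042. Of the 14 tested genes of atrophy, FOXO signalling and fasting, 14 were bounded within 1.5-fold and 0 passed adjustment (median -0.05). At 8 weeks 7 of them, in a list chosen with earlier results known, were higher in CAC after adjustment, beside 4.39% of all genes. Fatty acid oxidation and ketogenesis had 14 of 15 members bounded and a median of 0.0014. Interferon response genes were less tightly bounded, with 9 of 19 intervals within 1.5-fold and a median of -0.10.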
